A study of Aspergillus nidulans with 4 samples.

Results

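Cytochrome P450 enzymes hold a heme group whose iron activates molecular oxygen and inserts an oxygen atom into a substrate. Most fungal P450s take their electrons from NADPH through a membrane-bound reductase, and some can also take them from cytochrome b5. Filamentous fungi such as *Aspergillus nidulans* carry large P450 families, with members that act in sterol synthesis, in the breakdown of hydrocarbons and aromatic acids, and in the tailoring steps of secondary metabolite pathways. The genes described here are the 98 genes, of 10930 listed, whose function text names a P450, apart from 12 P450 genes of gene clusters for sterigmatocystin and for other secondary metabolites, which were set aside as groups of their own. Of the 98, 94 carry no more than the words putative cytochrome P450 or a like phrase. The other 4 were AN0595, which RefSeq names *cprA* and whose text names the NADPH-P450 reductase, an electron partner of P450 enzymes and not a P450 itself; AN1397, whose text names the catabolism of aromatic compounds; AN9384, a putative alkane hydroxylase; and AN10950, placed in the CYP53A3 family. Members of the CYP53 family are known as benzoate hydroxylases. The P450 genes of sterol synthesis are annotated by their reactions without the word P450 and are not among the 98.

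Mycelium of the *pkaA* deletion strain (Δ*pkaA*, FGSC A1358), which lacks the catalytic subunit PkaA of cAMP-dependent protein kinase, was compared with its isogenic parent (FGSC A1405, the WT). Each strain gave 2 samples from shaken liquid cultures (28°C, 250 rpm) in rich YGV medium, which holds 0.5% yeast extract and 2% glucose, taken at about 20 h of main culture. Only this deletion strain was used, so the loss of *pkaA* and any other difference between these strains cannot be told apart. The deposited value of a gene is its mean normalized count, which is the reads of each library scaled by its size factor, averaged over the libraries of a strain. Summed over all genes, the means gave 29312151 in Δ*pkaA* mycelium and 31012501 in WT mycelium. *pkaA* itself (AN6305) had a mean of 73.9 in Δ*pkaA* mycelium and 1869 in WT mycelium, 25.3-fold lower. For means below 800 (Δ*pkaA*) and 1500 (WT), the whole reads of both libraries could be recovered from the steps in the means, for 99.96% and 100% of the nonzero values. Which recovered library belongs to which labelled sample is not known. P-values therefore measure the spread between these 2 libraries per strain. In bulk RNA, fewer hyphae that express a gene and less RNA per hypha cannot be told apart.

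The P450 genes had a higher summed level in the Δ*pkaA* strain. Their means added up to 111405 in Δ*pkaA* mycelium and 73746 in WT mycelium, 1.51 times as much, whereas over all genes the Δ*pkaA* sum was 0.945 of the WT sum. Without the reductase gene *cprA* the sums were 100881 in Δ*pkaA* mycelium and 67125 in WT mycelium, 1.50 times as much. Many were barely transcribed in this medium. Of the 98, 31 had an average of the strain means below 10 (31.6%), against 13.5% of all genes, and 7 of those had no reads in either strain (3.52% of all genes), which over the libraries of a strain allows a mean of up to 1.50 for the floor of 3 reads. The remaining 67 had an average of at least 10, and 50 of at least 100.

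Few genes made up most of the P450 sum, and they differed in part between the strains. The first 4 genes held 54.3% of it in the Δ*pkaA* strain and the first 5 held 56.5% in the WT. In the Δ*pkaA* strain AN7399 led with a mean of 22492, which was 20.2% of the P450 sum, followed by AN3497 with 15994 (14.4%) and AN5665 with 11477 (10.3%). In the WT AN3497 led with 10873 (14.7%), followed by AN6835 with 9653 (13.1%) and AN9007 with 7467 (10.1%). All of these are putative P450s with no named substrate. Per kilobase of listed gene span, AN7399 also ranked first in the Δ*pkaA* strain, at 10934 per kb, and AN3497 first in the WT, at 6095 per kb. AN9007 followed in the WT at 3889 per kb, whereas AN6835, with a longer span, stood at 2773 per kb. Of the first 3 genes by level in each strain, only AN3497 was shared. In the Δ*pkaA* strain AN6835 had a mean of 394 and AN9007 a mean of 210.3, and in the WT AN7399 had a mean of 380.1 and AN5665 a mean of 35.5.

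**Figure D1:**
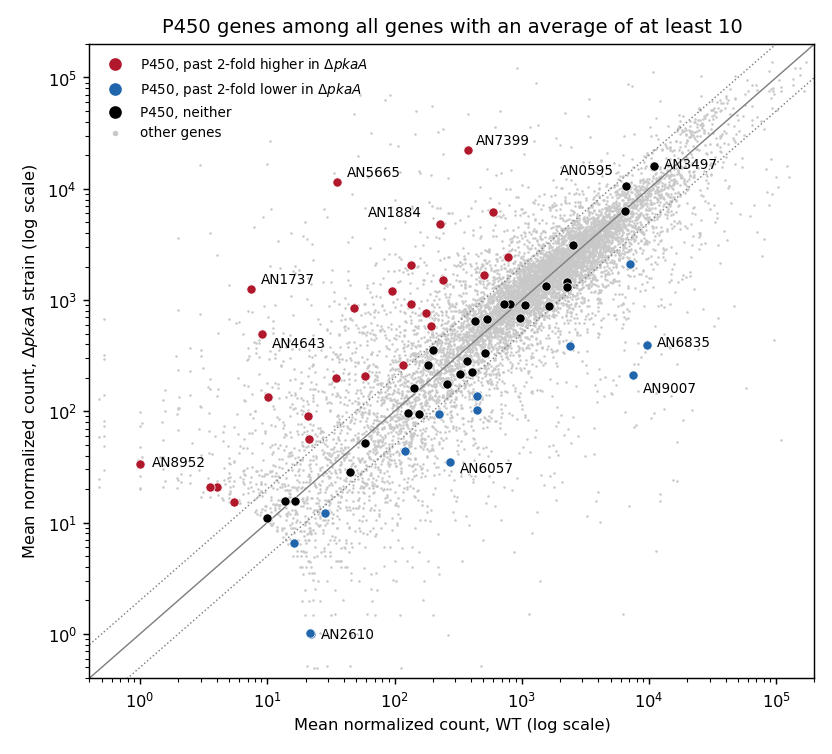
Mean normalized count of each gene in the Δ*pkaA* strain (y axis, log scale) against the WT (x axis, log scale), for genes with an average of at least 10 and reads in both strains. P450 genes are large points (red, past 2-fold higher in Δ*pkaA*; blue, past 2-fold lower; black, neither), other genes are grey, the solid line marks equal means and the dotted lines 2-fold. The 67 P450 genes split into 25 red, 13 blue and 29 black points, with AN5665 and AN1737 far above the lines and AN9007 and AN6835 far below.

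Of the 67 P450 genes with an average of at least 10, 25 had a mean more than 2-fold higher in the Δ*pkaA* strain (37.3%; 16.3% of all genes with such an average) and 13 more than 2-fold lower (19.4%; 16.4% of all genes), together 56.7% against 32.7% of all genes. Past 4-fold there were 18 P450 genes higher (26.9%; 8.49% of all genes) and 7 lower (10.4%; 6.79% of all genes). Past 10-fold there were 11 higher (16.4%; 4.1% of all genes) and 4 lower (5.97%; 2.57% of all genes), together 22.4% of the P450 genes and 6.67% of all genes. The median log2 ratio of the 67 was 0.20, and that of all genes was -0.00063. The middle 50% of the P450 genes reached from -0.70 to 2.11, against -0.61 to 0.59 for all genes. The P450 genes thus had a wider spread of ratios, mostly on the higher side. Their lower quartile and median lay nearer to those of all genes than their upper quartile did. The median size of the log2 ratio, whichever its sign, was 1.40 for them and 0.60 for all genes.

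Calls were made with limma on log2(normalized value + 1) of the recovered libraries, at a Benjamini-Hochberg adjusted p below 0.05 over all fitted genes and a change of at least 2-fold. The log2 fold changes are on that scale, which understates the change of low genes. Of the 40 P450 genes whose reads were recovered in all libraries, 13 rose in the Δ*pkaA* strain (32.5%; 20.5% of 3732 fitted genes), 9 fell (22.5%; 23.3% of fitted genes) and 18 were not called, so that 55% were called against 43.8% of all fitted genes. In 37 of the 40 the libraries of the strains did not overlap (92.5%), as in 84.4% of all fitted genes. The median log2 fold change of all fitted genes was -0.10, and centring on it left 13 rises and 7 falls. The remaining 27 of the 67 had a mean above the recovery limit in either strain or both, among them the most abundant P450 genes. For 16 of these the reads could be taken as the closest pair of libraries where every other pair differed at least 2-fold. This choice was made after the data were seen and favours libraries that are alike. The SEs and p-values rest on it for these 16 genes. With them, 56 P450 genes were fitted, of which 21 rose (37.5%; 16.5% of 6689 genes) and 10 fell (17.9%; 17.7% of genes), together 55.4% against 34.2% of genes. All 22 calls of the first fit were kept in this wider one.

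**Figure D2:**
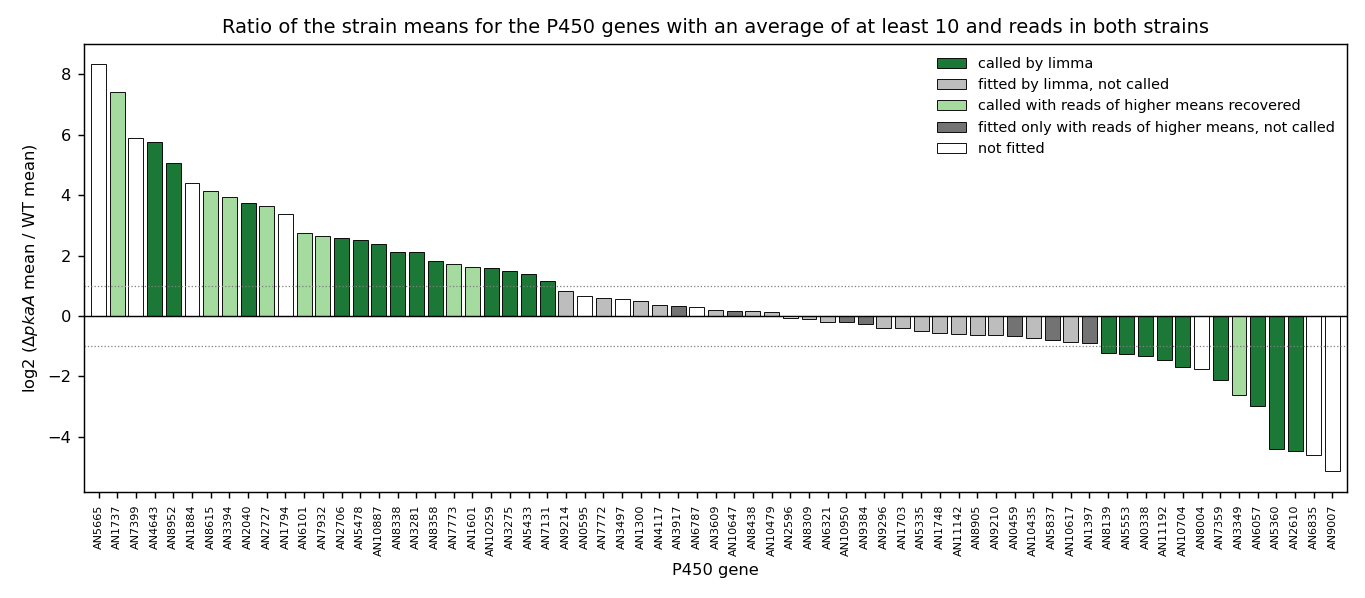
log2 ratio of the Δ*pkaA* mean over the WT mean (y axis) for the 67 P450 genes with an average of at least 10, in order of the ratio; dotted lines mark 2-fold. Dark green bars are genes called by limma, light green bars those called only when reads of higher means were recovered as well, grey bars were fitted and not called, and white bars were not fitted. The ratios run from 8.34 in AN5665 to -5.15 in AN9007, and 6 of the 7 white bars past 2-fold stand beyond the 4-fold limit.

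The largest difference was that of AN5665, a putative P450. It had a mean of 11477 in the Δ*pkaA* strain, against 47 and 25 reads in the WT libraries, whose mean was 35.5. It thus ranked among the first 3 P450 genes by level in the Δ*pkaA* strain and was low in the WT, 323-fold higher by the means. Its span overlaps the adjacent AN5666, a putative MAP kinase gene read from the other strand, by 60 bases. The library kit does not mark strand, so reads in such an overlap cannot be told apart. AN5666 had means of 6373 in Δ*pkaA* mycelium and 5687 in WT mycelium.

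AN1737 came next, with 1258 and 1274 reads in the Δ*pkaA* libraries, against 10 and 5 reads in the WT libraries. The Δ*pkaA* reads were taken as the closest pair, so their agreement was set by that choice. The WT libraries differed 1.84-fold after scaling, and both were far below the Δ*pkaA* values. The log2 fold change in the wider fit was 7.29 (SE 0.28, n = 2 per strain, limma adjusted p 4.69e-06), and the ratio of the means was 171. AN7399, the most abundant P450 transcript in the Δ*pkaA* strain, had a mean of 22492 there, against 396 and 366 reads in the WT libraries, a 59.2-fold higher mean. No test could be run on AN5665 or AN7399 because their Δ*pkaA* reads were not recovered.

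AN4643 had 532 and 457 reads in the Δ*pkaA* libraries, against 8 and 10 reads in the WT libraries. The libraries were far apart, and the log2 fold change was 5.63 (SE 0.25, n = 2 per strain, limma adjusted p 3.14e-05). AN4643 lies 3 genes from *ivoA* (AN10576), a nonribosomal peptide synthetase gene with means of 37.9 in Δ*pkaA* mycelium and 55.9 in WT mycelium. Another P450 gene between them, AN10573, had 0 and 2 reads in the Δ*pkaA* libraries and 1 and 4 reads in the WT libraries. Both neighbours are named after a look at their values.

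Further genes were more than 10-fold higher. AN3394, which RefSeq names *fmaG*, had 2151 and 2013 reads in the Δ*pkaA* libraries, against 127 and 142 reads in the WT libraries (log2 fold change 3.94, SE 0.14, n = 2 per strain, wider fit with limma, adjusted p 3.51e-06). In *A. fumigatus* that name belongs to a P450 of fumagillin synthesis. AN8615 had 809 and 895 reads in the Δ*pkaA* libraries, against 39 and 56 reads in the WT libraries, and AN2727 had 1114 and 1301 reads in the Δ*pkaA* libraries, against 110 and 84 reads in the WT libraries. Both are putative P450s without a named substrate, and their log2 fold changes in the wider fit were 4.16 (SE 0.24) and 3.63 (SE 0.17, n = 2 per strain each, limma adjusted p 1.53e-05 and 7.09e-06). AN1884 and AN1794 were too abundant in the Δ*pkaA* strain for a test. AN1884 had a mean of 4861 there, against 232 and 224 reads in the WT libraries, 21.4-fold higher by the means. AN1794 had a mean of 6179 in the Δ*pkaA* strain, against 635 and 555 reads in the WT libraries, 10.4-fold higher. AN1794 overlaps AN1793, a predicted terpene synthase gene on the other strand, by 432 bases, and AN1793 had means of 88.0 in Δ*pkaA* mycelium and 95.3 in WT mycelium. AN6101, the last of the 10 largest differences on the higher side among genes with an average of at least 100, rose with 898 and 944 reads in the Δ*pkaA* libraries, against 134 and 138 reads in the WT libraries (log2 fold change 2.75, SE 0.14, n = 2 per strain, wider fit with limma, adjusted p 9.93e-06).

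Some genes of low level were higher too, here chosen after their values were seen. AN2040, a putative P450, had 121 and 150 reads in the Δ*pkaA* libraries, against 8 and 12 reads in the WT libraries (limma log2 fold change 3.65, SE 0.34, n = 2 per strain, adjusted p 0.000216). AN8952 had 32 and 35 reads in the Δ*pkaA* libraries, against 1 read in each WT library (limma log2 fold change 4.11, SE 0.37, n = 2 per strain, adjusted p 0.000196). The ratio of its means was 33.5, with a 95% interval of 8.93 to 283 that covers counting error only. AN11220, named because it was listed at 0 in the WT, had 11 and 14 reads in the Δ*pkaA* libraries and none in the WT libraries, at least 8.37-fold higher when the WT is set at 3 reads over its libraries. The other called rises of the 40 fitted genes were AN5478, AN2706, AN10887, AN8338, AN3281, AN8358, AN10259, AN5433, AN3275 and AN7131, with log2 fold changes of 1.14 in AN7131 up to 2.53 in AN5478. The call of AN5433 was lost without the second Δ*pkaA* library, in a fit with 52 and 61 reads in the Δ*pkaA* libraries, against 22 and 21 reads in the WT libraries. In the wider fit AN7932, AN7773 and AN1601 also rose, with log2 fold changes of 2.65, 1.73 and 1.63.

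**Figure D3:**
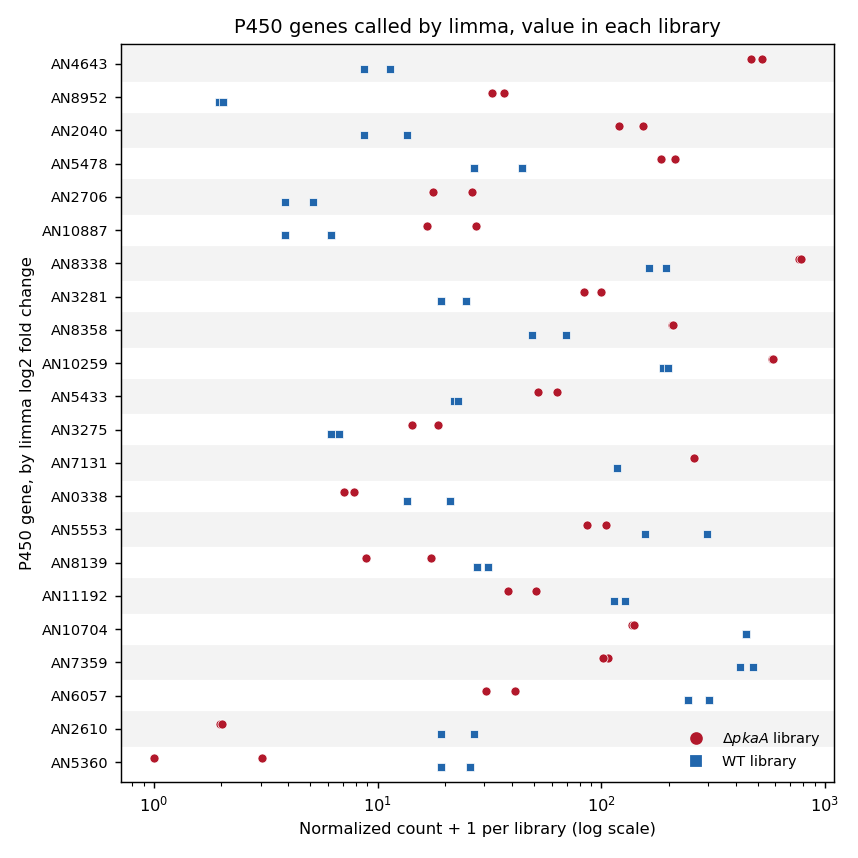
Normalized count + 1 in each library (x axis, log scale) for the 22 P450 genes called by limma with reads recovered in all libraries, in order of the log2 fold change. Red circles are the Δ*pkaA* libraries and blue squares the WT libraries of the same gene, drawn just above and just below its line. In none of the 22 do the strains overlap, which their choice by p-value and fold change favours. AN5553 stands out by WT libraries that are far apart.

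The largest differences on the lower side were those of genes that were abundant in the WT. AN9007 had 215 and 206 reads in the Δ*pkaA* libraries, against a mean of 7467 in the WT, 35.5-fold lower by the means. AN6835 had 407 and 383 reads in the Δ*pkaA* libraries, against a mean of 9653 in the WT, 24.5-fold lower. Both are putative P450s, and together with AN8004 they were 3 of the 4 P450 genes with the highest means in the WT. AN8004 had 2107 and 2120 reads in the Δ*pkaA* libraries, against a mean of 7076 in the WT, 3.35-fold lower. For these 3 the WT reads were not recovered and no test was run. The Δ*pkaA* libraries were close to each other in AN9007 and in AN6835. Those of AN8004 were taken as the closest pair, so their agreement was set by that choice.

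AN6057 had 41 and 29 reads in the Δ*pkaA* libraries, against 314 and 234 reads in the WT libraries, with a log2 fold change of -2.94 (SE 0.24, n = 2 per strain, limma adjusted p 0.000136). AN3349 had 405 and 367 reads in the Δ*pkaA* libraries, against 2223 and 2547 reads in the WT libraries, with a log2 fold change of -2.62 in the wider fit (SE 0.13, n = 2 per strain, limma adjusted p 1.01e-05). The libraries of the strains stood clear of each other in both genes. AN7359 had 108 and 99 reads in the Δ*pkaA* libraries, against 498 and 400 reads in the WT libraries, and fell by 2.10 on the log2 scale (SE 0.15, n = 2 per strain, limma adjusted p 8.2e-05). AN10704 had 139 and 136 reads in the Δ*pkaA* libraries, against 464 and 423 reads in the WT libraries, and fell by 1.68 (SE 0.13, n = 2 per strain, limma adjusted p 0.000106). AN5553 had 106 and 84 reads in the Δ*pkaA* libraries, against 162 and 284 reads in the WT libraries. Its WT libraries were far apart. It fell by 1.18 on the log2 scale (SE 0.32, n = 2 per strain, limma adjusted p 0.0174), a call that was lost when either Δ*pkaA* library or the second WT library was left out (log2 fold changes of -1.31, -1.04 and -0.71). AN10617 was lower by less than 2-fold, with a log2 fold change of -0.86 (SE 0.13, n = 2 per strain, limma adjusted p 0.00158).

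At the low end, AN2610 had 1 read in each Δ*pkaA* library, against 19 and 25 reads in the WT libraries, and AN5360 had 0 and 2 reads in the Δ*pkaA* libraries, against 19 and 24 reads in the WT libraries. Both were chosen after their values were seen, and both fell (n = 2 per strain, limma adjusted p 0.000517 and 0.00234). The ratio of the means was 0.0452 for AN2610 (95% counting interval 0.00535 to 0.174) and 0.0472 for AN5360 (0.00547 to 0.179). The other falls called were those of AN11192, AN8139 and AN0338. AN11192 fell by 1.45 on the log2 scale but shares 2288 bases with AN9221, a putative transcription factor gene on the other strand with means of 14.4 in Δ*pkaA* mycelium and 101 in WT mycelium. The falls of AN0338 and AN8139 were lost in 3 of the 4 fits that left out a library.

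The P450 genes with a named activity stayed within 2-fold. AN1397, of aromatic compound catabolism, had 869 and 886 reads in the Δ*pkaA* libraries, against 1735 and 1544 reads in the WT libraries. The libraries, taken as the closest pairs in both strains, did not overlap. The log2 fold change in the wider fit was -0.90 (SE 0.10, n = 2 per strain, limma adjusted p 0.000264), short of 2-fold. AN10950 of the CYP53A3 family had 1337 and 1352 reads in the Δ*pkaA* libraries, against 1638 and 1483 reads in the WT libraries. Its log2 fold change of -0.21 did not pass (SE 0.09, n = 2 per strain, limma adjusted p 0.0877). The putative alkane hydroxylase gene AN9384 had 882 and 913 reads in the Δ*pkaA* libraries, against 938 and 1189 reads in the WT libraries. The WT libraries differed from each other by more than the strain means, and the log2 fold change was -0.23 (SE 0.16, n = 2 per strain, limma adjusted p 0.244). Of the 5 P450 genes with the highest averages, AN3497, AN2596 and *cprA* were within 2-fold. AN3497 had means of 15994 in Δ*pkaA* mycelium and 10873 in WT mycelium, and AN2596 had means of 6274 in Δ*pkaA* mycelium and 6531 in WT mycelium, with no test for either of them. Among the sterol P450 genes left out by the wording of their text, AN1901, a putative 14 alpha-demethylase gene, had means of 797 in Δ*pkaA* mycelium and 3989.6 in WT mycelium. AN8283, another putative 14-demethylase gene, had means of 8181 in Δ*pkaA* mycelium and 5588 in WT mycelium.

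Genes that supply P450 enzymes with electrons or make heme were looked at next. The reductase gene *cprA* had a mean of 10524 in the Δ*pkaA* strain, against 6621 in the WT with 6887 and 6386 reads in its libraries, 1.59-fold higher and not tested. The other gene found by its text, AN8920 of the cytochrome b5 kind, was listed at 0 in the Δ*pkaA* strain and at 4.87 in the WT. Of 8 genes of heme and siroheme synthesis, 6 were within 2-fold, none was past 2-fold higher and 2 (25%, against 16.4% of all genes) were past 2-fold lower in the means. They were AN5130 (*hem13*), for coproporphyrinogen oxidase, with means of 3527 in Δ*pkaA* mycelium and 7634 in WT mycelium, and AN3995, a putative aminolevulinic acid dehydratase gene, with means of 17.4 in Δ*pkaA* mycelium and 37.8 in WT mycelium. Of the 3 that could be fitted, 0 were called by limma or by limma voom, and 1 had an unadjusted p below 0.05, AN10455 for uroporphyrinogen-III synthase, with a log2 fold change of 0.51 (SE 0.13, n = 2 per strain, limma adjusted p 0.0146). *hemA* (AN2284), whose product makes 5-aminolevulinic acid at the start of heme synthesis, had means of 8724 in Δ*pkaA* mycelium and 6052 in WT mycelium. AN1403, for porphobilinogen synthase and far more abundant than AN3995, had means of 3658 in Δ*pkaA* mycelium and 2801 in WT mycelium. Of 17 other genes with predicted heme binding, 13 had an average of at least 10. In the means 4 of these (30.8%, against 16.3% of all genes) were past 2-fold higher and 0 past 2-fold lower. The 3 called by limma were AN2778, AN7984 and AN2590, which rose by 3.50, 2.92 and 2.35 on the log2 scale (n = 2 per strain, adjusted p 0.000133, 0.00203 and 0.00848), of 6 fitted (50%, against 20.5% of all fitted genes that rose).

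Several P450 genes that were higher in the Δ*pkaA* strain lay beside genes of a common family, a pattern noticed after the values were seen. The function text of AN1738 lists 23 other genes of *A. nidulans* as its relatives and names no activity for them. Of the 24, 23 could be placed in the gene order and 6 (26.1%) lay directly beside a P450 gene, as did 2.16% of all 9974 genes placed. The 6 P450 genes were AN5665, AN1737, AN8952, AN6414, AN10887 and AN7773, and the mean of every one of them was more than 2-fold higher in the Δ*pkaA* strain, by 3.30-fold in AN7773 up to 323-fold in AN5665. AN6414 had only 2 and 5 reads in the Δ*pkaA* libraries, against 0 and 1 read in the WT libraries. Of the 62 other P450 genes with an average of at least 10, a limit that AN6414 does not meet, 20 (32.3%) were past 2-fold higher and 13 past 2-fold lower. The family was defined by AN1738, the neighbour of AN1737, so the pattern includes a pair that prompted it. These shares are a description and no test of the pattern.

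The family genes in these pairs were higher as well. AN5664, beside AN5665, had 1721 and 1458 reads in the Δ*pkaA* libraries, against 24 and 18 reads in the WT libraries, 76.0-fold higher by the means. AN1738, beside AN1737, had 69 and 75 reads in the Δ*pkaA* libraries, against 7 and 4 reads in the WT libraries, and AN8951, beside AN8952, had 54 and 52 reads in the Δ*pkaA* libraries, against none in either WT library. AN6413, beside AN6414, had 269 and 259 reads in the Δ*pkaA* libraries, against 16 and 29 reads in the WT libraries. These pairs did not overlap between strains. The log2 fold changes were 3.53 for AN1738 (SE 0.35), 5.75 for AN8951 (SE 0.38) and 3.55 for AN6413 (SE 0.34, n = 2 per strain each, limma adjusted p 0.000287, 6.87e-05 and 0.000241). AN7774, beside AN7773, rose by 2.89 (SE 0.24, n = 2 per strain, limma adjusted p 0.000147), with 395 and 342 reads in the Δ*pkaA* libraries, against 41 and 58 reads in the WT libraries. AN10886, beside AN10887, had 51 and 55 reads in the Δ*pkaA* libraries, against 29 and 26 reads in the WT libraries, and its log2 fold change of 0.92 (SE 0.27, n = 2 per strain, limma adjusted p 0.0227) fell short of 2-fold. In 4 of the 6 pairs the genes were read from opposite strands, and the gap between the genes was 358 to 2190.0 bases. The 17 family genes placed elsewhere showed no common direction: 4 were past 2-fold higher in the Δ*pkaA* strain, 6 past 2-fold lower, 2 neither, and 5 had an average below 10.

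**Figure D4:**
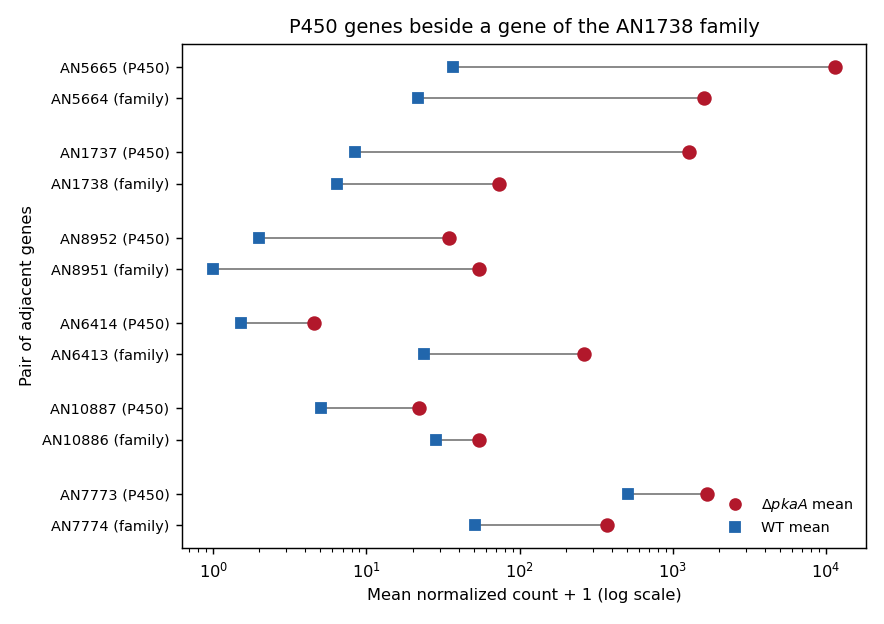
Mean normalized count + 1 (x axis, log scale) of the 6 P450 genes beside a gene of the AN1738 family and of that adjacent gene, with pairs in order of the P450 ratio. Red circles are the Δ*pkaA* means and blue squares the WT means, joined by a line. Every red circle lies right of its blue square, and AN8951 was listed at 0 in the WT.

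The surroundings of the P450 genes were examined more widely in the gene order. Of the 38 P450 genes past 2-fold, 26 (68.4%) had at least 1 adjacent gene past 2-fold the same way, as did 50.2% of all such genes, and 7 (18.4%) had both, as did 12% of all such genes. Unbroken runs of genes past 2-fold the same way, the P450 gene included, held 2 genes in 12 cases, 3 in 7 and 4 to 6 in 7, whereas 12 of the 38 (31.6%; 49.8% of all such genes) stood alone. Runs of 4 or more thus took in 18.4% of the P450 genes and 14% of all such genes. AN6101 was followed by AN6100, with means of 3673 in Δ*pkaA* mycelium and 210.4 in WT mycelium, and by AN6099, with means of 4938 in Δ*pkaA* mycelium and 299 in WT mycelium, both of unknown function. AN7932 lay beside AN7933, a putative LaeA-like methyltransferase gene with means of 1364 in Δ*pkaA* mycelium and 44.6 in WT mycelium. LaeA itself is known as a regulator of secondary metabolism in aspergilli. AN7399 lay beside AN7400, with means of 3110.1 in Δ*pkaA* mycelium and 169 in WT mycelium, and the next gene, AN7401, a putative endo-1,4-beta-xylanase gene, had a mean of 126 in the Δ*pkaA* strain and was listed at 0 in the WT. The run of 4 ended with AN7402, a putative glucoamylase gene with means of 36.0 in Δ*pkaA* mycelium and 2.44 in WT mycelium. On the lower side, AN3349 stood in a run of 6 genes, the longest around these P450 genes. It was flanked by AN10392, with 89.7 in Δ*pkaA* mycelium and 284 in WT mycelium, and AN3348, with 222 in Δ*pkaA* mycelium and 1123 in WT mycelium, and the run also held AN10399, a predicted oxidoreductase gene, AN3347, a putative amino acid transporter gene, and AN3346. Opposite directions occurred too. AN3394, which rose, lay beside the metalloprotease-like gene AN3393, with means of 0.509 in Δ*pkaA* mycelium and 482 in WT mycelium, and AN9007, which was lower, lay 3 genes from the predicted monooxygenase gene AN9004, with means of 7809 in Δ*pkaA* mycelium and 432 in WT mycelium.

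**Figure D5:**
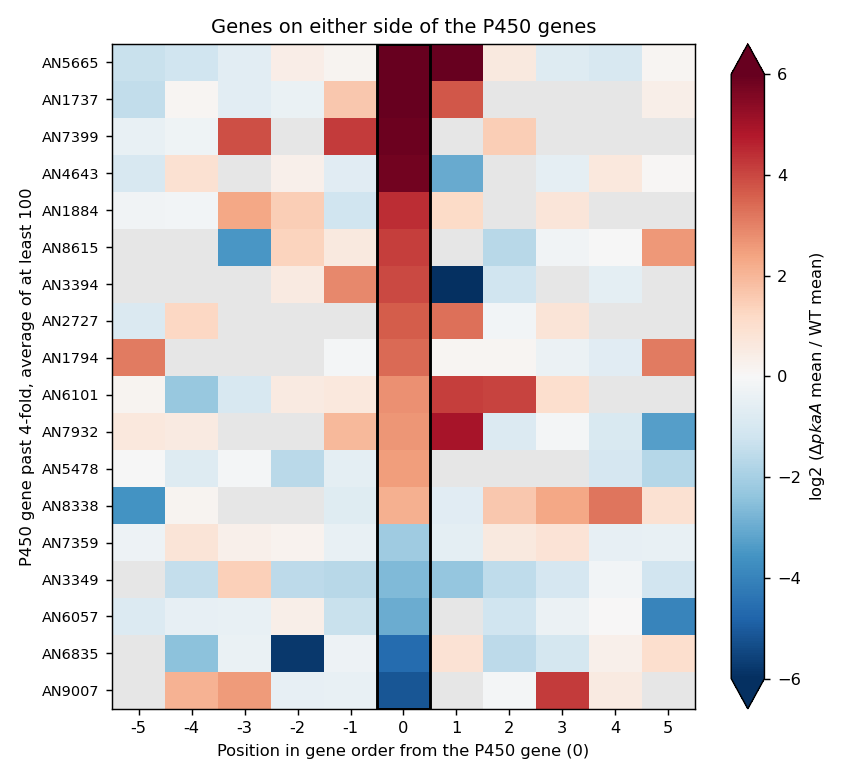
log2 ratio of the Δ*pkaA* mean over the WT mean (colour) for the 5 genes on either side (x axis, position in gene order) of each P450 gene past 4-fold with an average of at least 100 (rows). Grey cells are genes with an average below 10 or listed at 0 in either strain. Of the 18 rows, 8 have no adjacent gene past 2-fold the same way as the boxed P450 gene, 8 lie in runs of 2 or 3 genes, as AN5665 and AN6101 do, and 2, AN3349 and AN7399, in longer runs.

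P450 genes are common in secondary metabolite gene clusters, which are built around a backbone gene for a polyketide synthase, nonribosomal peptide synthetase, terpene synthase or prenyltransferase. With the known clusters set aside, 22 of the 98 P450 genes (22.4%) still lay within 5 genes of a backbone gene, as did 4.94% of all genes placed. Of these 22, 15 had an average of at least 10. Of the 15, 7 were past 2-fold higher in the Δ*pkaA* strain (46.7%; 16.3% of all genes) and 2 past 2-fold lower (13.3%; 16.4% of all genes). Of the 52 P450 genes with such an average that lay farther from a backbone gene, 18 (34.6%) were past 2-fold higher and 11 (21.2%) past 2-fold lower. The backbone genes did not share the differences of the P450 genes near them. Beside the 9 P450 genes that were past 2-fold, no backbone gene with an average of at least 10 was past 2-fold in the same direction. In 7 cases it was within 2-fold, as with AN9005, a putative polyketide synthase gene near AN9007 with means of 92.1 in Δ*pkaA* mycelium and 100.2 in WT mycelium. In 1 case it had an average below 10, and in 1 it went the other way. That one was AN2035, near AN2040, with means of 20.0 in Δ*pkaA* mycelium and 126 in WT mycelium, which fell by 2.60 on the log2 scale (SE 0.25, n = 2 per strain, limma adjusted p 0.000246). AN2035 lies in the range of a cluster whose P450 genes were set aside, but backbone genes of such clusters were still counted. Genes whose text spells the enzyme as polketide synthase were not among these backbone genes. Counting them as well put 24 P450 genes (24.5%; 5.08% of all genes placed) within 5 genes of a backbone gene and added AN5478, near AN5475 with means of 3.49 in Δ*pkaA* mycelium and 6.43 in WT mycelium, to those past 2-fold. It also added AN3273, which lay 3 genes from AN3275 and was higher in the same direction at a low level, with means of 10.6 in Δ*pkaA* mycelium and 0.521 in WT mycelium. The converse was seen at AN8905, chosen after its values were seen. It lay within 5 genes of the backbone gene AN8910, whose means were 5.51 in Δ*pkaA* mycelium and 11412 in WT mycelium. AN8905 had 326 and 343 reads in the Δ*pkaA* libraries, against 492 and 543 reads in the WT libraries, a log2 fold change of -0.63 (SE 0.14, n = 2 per strain, limma adjusted p 0.00768).

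The P450 genes AN3281, AN3275, AN10389 and AN3272 stood close together around the predicted terpene synthase gene AN3277, and each had a higher mean in the Δ*pkaA* strain, a group chosen after the values were seen. AN3281 had 101 and 81 reads in the Δ*pkaA* libraries, against 19 and 23 reads in the WT libraries (limma log2 fold change 2.06, SE 0.29, n = 2 per strain, adjusted p 0.00109). AN3275 had 18 and 13 reads in the Δ*pkaA* libraries, against 6 and 5 reads in the WT libraries, and its call was lost without the first Δ*pkaA* library. AN10389, with 4 and 6 reads in the Δ*pkaA* libraries and 1 read in each WT library, and AN3272, with 6 and 5 reads in the Δ*pkaA* libraries and 0 and 1 read in the WT libraries, were too low for the fit. Next to AN3281, the predicted transcription factor gene AN3280 had means of 1988 in Δ*pkaA* mycelium and 474 in WT mycelium, and AN3279, a predicted oxidoreductase gene, had means of 289 in Δ*pkaA* mycelium and 95.6 in WT mycelium. AN3277 itself had means of 362 in Δ*pkaA* mycelium and 312 in WT mycelium, a log2 fold change of 0.22 (SE 0.17, n = 2 per strain, limma adjusted p 0.296). AN3276, directly beside AN3275, differed the other way, with means of 32.9 in Δ*pkaA* mycelium and 59.7 in WT mycelium (log2 fold change -0.85, SE 0.27, n = 2 per strain, limma adjusted p 0.0306, short of 2-fold).

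Directly adjacent P450 genes formed 2 pairs. In AN8437 and AN8438 both means were within 2-fold, at 3.49 in Δ*pkaA* mycelium and 2.08 in WT mycelium for AN8437 and at 15.5 in Δ*pkaA* mycelium and 13.8 in WT mycelium for AN8438. In the other pair AN7773 rose (1676 and 1673 reads in the Δ*pkaA* libraries, against 599 and 424 reads in the WT libraries), and AN7772, chosen after its values were seen, had 650.0 and 646 reads in the Δ*pkaA* libraries, against 326 and 523 reads in the WT libraries, which was not called (log2 fold change 0.65, SE 0.25, n = 2 per strain, limma adjusted p 0.0593). Without the second WT library AN7772 was called as well. The difference between AN7773 and AN7772 was not tested.

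The 24 P450 genes with reads but an average below 10 leave little to compare. The mean was higher in the Δ*pkaA* strain in 15 of them and lower in 9. Named after their values were seen, AN7969, AN7522 and AN7066 show the range. AN7969 had no reads in the Δ*pkaA* libraries, against 3 and 8 reads in the WT libraries, at least 3.74-fold lower by the floor of 3 reads. AN7522 had 2 reads in each Δ*pkaA* library, against 4 and 17 reads in the WT libraries, and AN7066 had 16 and 9 reads in the Δ*pkaA* libraries, against 2 and 5 reads in the WT libraries. The 12 P450 genes of the clusters set aside had a sum of means of 64479 in Δ*pkaA* mycelium and 7689 in WT mycelium. Most of the Δ*pkaA* sum was that of AN7881, which lies in the range of the aspercryptin cluster and had means of 63229 in Δ*pkaA* mycelium and 84.7 in WT mycelium.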

How the data were processed

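RNA-seq libraries (2 samples each of Δ*pkaA* and WT mycelium) were made with an unstranded kit, and reads were aligned with bowtie2 to the AspGD reference, counted with HTSeq and compared with DESeq by the authors. For these programs and the genome, version and release were not given in the sources used here, nor was the handling of technical replicates. The signal that the authors deposited for a gene is its mean normalized count in a strain, from counts scaled by size factors. A supplementary table's header gave the strain behind each column. The same table holds the authors' own fold change, p-value and q-value, which were not used, and a second deposited table names no P450 gene and was not used.

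Whole reads per library were recovered as the pair of whole numbers that gives a mean within 6e-05, below 800 (Δ*pkaA*) and 1500 (WT), with size factors of 1.02 and 0.982 (Δ*pkaA*) and 1.04 and 0.960 (WT). In simulated means 100% of the values for which a pair was chosen came back right, and values without a chosen pair were not counted. The simulated libraries of a strain were set close to each other, so the closest pair of the wider fit was tried only where its assumption holds. The plan of the re-analysis, and not the authors, foresaw a test on values per library, and the recovered values were used for it. limma (lmFit, eBayes with trend) was fitted on log2(normalized value + 1) of all genes with an average of at least 10. In data simulated for its 3732 genes, 81.9% of 2-fold, 98.5% of 4-fold and 100% of 8-fold changes passed an adjusted p below 0.05 in the right direction. By the same p limit there were 6 false calls. The limit of 2-fold was not applied to the simulated data, so these shares do not give the sensitivity of the calls reported here. A wider fit, chosen after the data were seen, added higher means. Alternatives were other pseudocounts, filters, fold limits and scalings, limma voom and leaving out each library.

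The members and the lists were chosen with earlier results of these data known. Genes were named by this rule: a symbol or specific activity, the 10 largest rises and the 10 largest falls by the means, over genes with an average of 100 or more that were read in both strains, genes at 0 in either strain with at least 10 in the other, and the 5 highest averages. Every other gene in the text, neighbouring genes included, was chosen with its values in view or listed because it was called. Symbols and the order of genes were read from a table of RefSeq genes (assembly ASM1142v1), to which all 98 genes matched and which held 9974 of the listed genes. Its build differs from the authors', so none of its coordinates is given. The 59 backbone genes were those whose function text names such an enzyme, spelt as usual. Sequences and proteins were not analysed here. The tools were limma 3.58.1 in R 4.3.3 and, in Python 3.11.15, pandas 2.3.3, NumPy 2.4.6, matplotlib 3.10.9 and SciPy 1.17.1.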

Additional observations from a re-analysis of the deposited data

How the results depend on the processing

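No paired analysis was possible because the recovered libraries carry no replicate number. Against the 22 calls of P450 genes by limma, leaving out each library in turn gave 19 to 22 calls, with 12 to 15 rises and 7 falls, of which 18 to 20 were calls kept from the 22 and the rest newly gained (AN10435, AN7772 and AN8438), where the lone library of a strain is assumed to vary like those of the other strain. Fitting only genes with an average of at least 50 left 13 calls (8 rises, 5 falls), a limit of 4-fold left 12 (8 rises, 4 falls), and no fold limit gave 16 falls beside 15 rises. Recovering the reads of higher means as well gave 21 rises, and 19 to 22 when a library was left out of that fit. Limma voom, other pseudocounts, no filter on low values and the other scalings kept the count within 19 to 24, and no call changed sign in any of these fits. Of the 38 P450 genes past 2-fold in the means, 25 were past 4-fold, with 7 of them lower, and with an average of at least 100 the lower ones numbered 8. The median log2 ratio stayed between 0.19 and 0.32. Among 95 values of 25 named genes under the alternatives, the 3 that lost their call were those of AN5553, and 1 changed sign, that of AN2596, which has no test (log2 ratio -0.06, and 0.02 after scaling both strains to one total). Depth limits the 31 genes with an average below 10, and the genes of highest level, AN5665, AN7399, AN1884, AN1794, AN9007, AN6835 and AN8004 among them, have no test because their reads were not recovered in both strains.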
